A study of Rattus norvegicus with 24 samples.

Results

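The RNA levels of the oxidative phosphorylation genes were measured in the nucleus accumbens (NAc), a reward area of the ventral striatum, in 24 bulk RNA-seq libraries from adult male Sprague Dawley rats. Members were the protein-coding genes whose symbols name subunits of the respiratory chain and ATP synthase or factors named after them (Mt-nd, Mt-co, Mt-atp, Mt-cyt, Nduf, Sdha to Sdhd, Uqcr, Cox4 to Cox8 and Atp5). The rule took 104 of the 32545 genes in the table, of which 13 were encoded by the mitochondrial genome and 91 by the nuclear genome. The 91 nuclear genes carried 88 symbols, because Ndufa13, Cox6b1 and Atp5f1 each stood for 2 gene entries.

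All rats were 8 weeks old on arrival, and each of the 6 groups had 4 libraries that the labels call biological replicates, fewer than the number per group in the study's methods. In the injection experiment, rats received 5 intermittent IP injections of saline or of 250 µg/kg lipopolysaccharide (LPS, a bacterial immune stimulant), and after a gap either saline or heroin IP on 5 days, with the heroin dose rising from 1 to 5 mg/kg. These 16 libraries made up Saline-Saline (saline then saline), LPS-Saline (LPS then saline), Saline-Heroin (saline then heroin) and LPS-Heroin (LPS then heroin), with tissue taken 1 h after the last injection by the labels. By the study's methods, these rats first spent time in a locomotor chamber and tissue collection is given relative to its end rather than to the injection, so the exact time is not certain. In the self-administration experiment, catheterised rats took saline (Saline-SA) or heroin at 0.075 mg/kg per infusion (Heroin-SA) for 6 h a day in 10 sessions, and tissue was taken straight after the last session. Saline-SA and Heroin-SA rats differed from the injected rats in surgery, housing, light cycle and handling, including the locomotor chamber, so a difference between Saline-SA and Saline-Saline cannot be told apart from the experiment. The labels give the gap between LPS and heroin as a week and the study's methods give a shorter one, so no length is stated here.

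Oxidative phosphorylation takes place in the inner mitochondrial membrane and supplies most of the ATP that neurons use. Complexes I and II feed electrons from NADH and succinate to ubiquinone, complex III hands them to cytochrome c, complex IV hands them to oxygen, and complex V, the ATP synthase, turns the resulting proton gradient into ATP. The mitochondrial genome encodes core subunits of complexes I, III, IV and V on long transcripts that are cut into messengers, whereas all of complex II and every other subunit is made from nuclear genes.

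Values were FPKM, which divides the fragments on a gene by its length and by the size of the library, so that levels can be compared between genes per length. Whole reads on genes ranged from 12312878 to 18850240 per library. The library size implied by the FPKM values was not this count, and its ratio to the reads on genes ran from 0.940 to 1.048. The ratio was lowest in Saline-SA replicate 3 and at most 1.012 in that group, but at least 1.014 in Saline-Saline. FPKM differences between the experiments carry this ratio, whereas shares of reads do not. Its cause was not tested. Reads on the 13 mitochondrial genes ranged from 939073 to 2043111 and reads on the nuclear members from 142604 to 226703. The widest Wilson 95% interval on a library's share of reads was 0.0356 percentage points for the mitochondrial members and 0.0121 for the nuclear members, which covers counting error only. The 10 markers of striatal medium spiny neurons, among them Drd2, Rgs9 and Adora2a, were detected in every group, with summed levels of 1228 to 2498 FPKM in Saline-Saline. In such bulk tissue, fewer cells of a type and less RNA per cell cannot be told apart.

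The mitochondrial messengers were far above the nuclear ones. Averaged over 24 libraries, the 13 mitochondrial genes ranged from 157 FPKM for Mt-nd6 to 16678 FPKM for Mt-atp6, with a median of 6277 FPKM. The 87 nuclear members with a mean of at least 0.5 FPKM had a median of 123 FPKM and reached 758 FPKM. In every library 10 of the 13 mitochondrial genes stood among the 25 genes with the highest FPKM.

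The mitochondrial levels differed between genes, within complexes I and V as well as between complexes. The complex IV genes Mt-co1 (chrMT:5323-6867 on rn6, 15114 FPKM), Mt-co2 (chrMT:7006-7689, 12972 FPKM) and Mt-cox3 (chrMT:8599-9382, 13774 FPKM), which encode its catalytic core, lay close together. Cytochrome b of complex III, Mt-cytb (chrMT:14136-15278), stood at 7716 FPKM. The 7 complex I genes ranged from 7144 FPKM for Mt-nd1 (chrMT:2740-3694) and 6277 for Mt-nd2 through 3726 for Mt-nd3, 3378 for Mt-nd4l and 1894 for Mt-nd5 down to 519 for Mt-nd4 and 157 for Mt-nd6 (chrMT:13543-14061). Mt-nd6 is the only member on the minus strand of the mitochondrial chromosome and overlaps the end of Mt-nd5, and Mt-nd4l overlaps Mt-nd4 (chrMT:10160-11537). Mt-atp8 (1461 FPKM) likewise overlaps Mt-atp6, which touches Mt-cox3. Whether the counting used the strand, and what it did with reads in these overlaps or with nuclear copies of mitochondrial sequence, is not given in the sources used here, so the levels of Mt-nd4, Mt-nd6 and Mt-atp8 are uncertain. The libraries were also poly-A selected, and how well this selection captured each mitochondrial RNA was not measured, which limits the comparison of their levels.

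**Figure D1:**
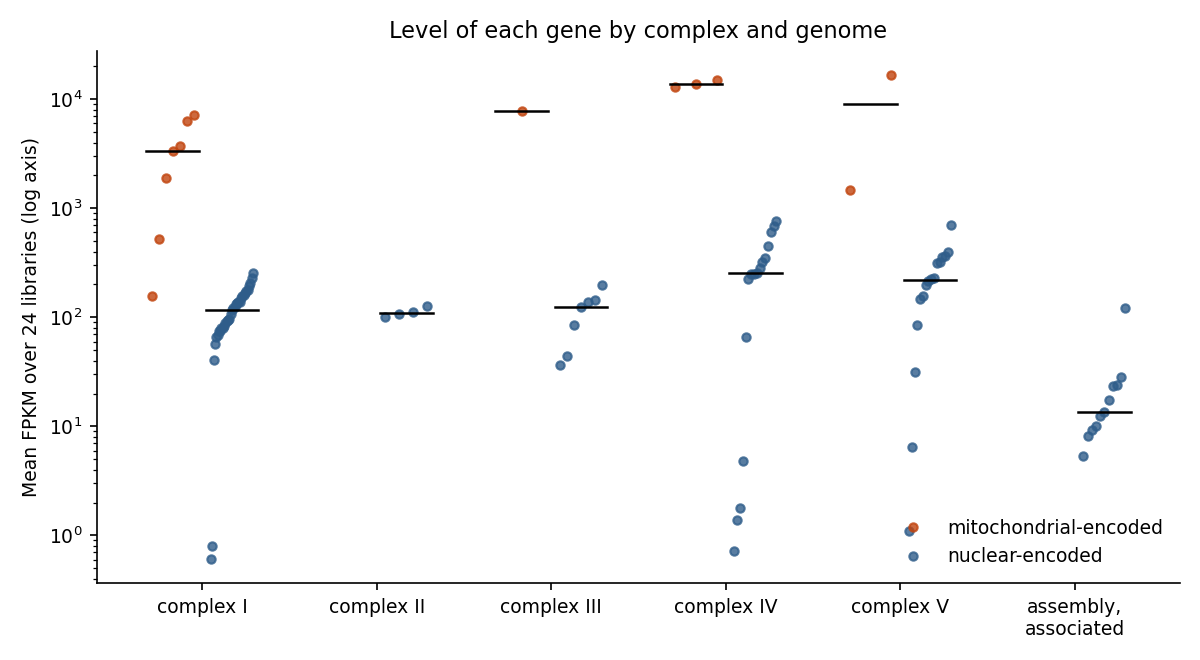
Mean FPKM over 24 libraries (log axis) of the 100 genes with a mean of at least 0.5, by complex; each point is a gene, orange for mitochondrial-encoded and blue for nuclear-encoded, and black lines are medians. In complexes I, III, IV and V the mitochondrial median (3378, 7716, 13774 and 9069 FPKM) lies above every nuclear gene of the same complex.

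Among nuclear members, complexes IV and V had higher medians (255 and 220 FPKM) than complexes I (117), II (110.0) and III (126). The assembly factors and associated proteins were grouped by symbol and took in the Ndufaf genes, Ndufa4l2, Cox7a2l, Atp5s and Atp5sl. They had a median of 13.6 FPKM and were led by Cox7a2l (121 FPKM), a factor that joins complexes III and IV. Cox4i1 of complex IV (758 FPKM) and Atp5b, the catalytic beta subunit of ATP synthase (704 FPKM), were the highest nuclear members. Ndufb8 led complex I (255 FPKM) and Uqcrh, the hinge protein, led complex III (199 FPKM), whose lowest member was Uqcrb (36.4 FPKM). The 4 complex II genes were close to each other, with 127 FPKM for Sdha, 112 for Sdhb, 108 for Sdhc and 100.1 for Sdhd.

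Where a subunit has tissue isoforms, the widely expressed form dominated. Cox6a1 stood at 681 FPKM against 1.39 for Cox6a2, the form of heart and skeletal muscle. Cox8a stood at 612 FPKM against 0.718 for Cox8b, another muscle form. Cox4i1 exceeded Cox4i2, the form associated with low oxygen and lung, which stood at 1.78 FPKM. Ndufa4, a complex IV subunit once assigned to complex I, stood at 322 FPKM and its relative Ndufa4l2 at 5.36. Cox7a2 stood at 223 FPKM. The 4 nuclear members under 0.5 FPKM on average were Cox7b2, Cox6c1, Cox8c and Ndufb4l1, and the last 3 were listed at 0 in all 24 libraries.

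Nuclear genes of this pathway often carry sites for the transcription factors NRF1, GABPA (an ETS factor) and YY1 near their start sites. RefSeq promoters on GRCr8, from 250 bases before to 50 after the start, could be matched for 73 of the 87 nuclear members above. The ETS core CCGGAAG, searched on either strand and printed as CTTCCGG where the minus strand holds it, occurred in 28.8% of these promoters and in 8.75% of all 33469 promoters of that length. The YY1 core AAGATGGC occurred in 19.2% against 3.17%, and the NRF1 core GCGCATGCG in 11% against 1.52%, and at least 1 of the 3 cores in 46.6% against 12.5%. The members' promoters also had a higher median GC content (57.3% against 51.7%). A match is a description of the letters and not a bound site. The promoters of 3 members show the cores in capitals: Ndufs1 and Sdhd, which moved in opposite directions in the comparison of Saline-SA with Saline-Saline, both hold the ETS core, and Uqcrc1 holds the NRF1 and YY1 cores, and no core overlaps another in these sequences.
Ndufs1 (chr9:72073556-72073855, minus strand): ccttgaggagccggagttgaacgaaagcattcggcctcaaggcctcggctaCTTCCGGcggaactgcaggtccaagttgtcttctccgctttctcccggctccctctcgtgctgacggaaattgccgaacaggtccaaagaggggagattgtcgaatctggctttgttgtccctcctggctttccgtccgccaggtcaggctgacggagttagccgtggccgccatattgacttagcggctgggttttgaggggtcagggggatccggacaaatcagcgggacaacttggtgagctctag
Sdhd (chr8:59850592-59850891, minus strand): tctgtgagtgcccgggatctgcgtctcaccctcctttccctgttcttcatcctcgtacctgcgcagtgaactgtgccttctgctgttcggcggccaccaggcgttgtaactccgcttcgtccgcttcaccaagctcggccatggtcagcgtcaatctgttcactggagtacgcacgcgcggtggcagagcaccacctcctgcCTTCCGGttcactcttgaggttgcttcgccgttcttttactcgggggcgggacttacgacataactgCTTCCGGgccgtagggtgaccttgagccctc
Uqcrc1 (chr8:118467973-118468272, plus strand): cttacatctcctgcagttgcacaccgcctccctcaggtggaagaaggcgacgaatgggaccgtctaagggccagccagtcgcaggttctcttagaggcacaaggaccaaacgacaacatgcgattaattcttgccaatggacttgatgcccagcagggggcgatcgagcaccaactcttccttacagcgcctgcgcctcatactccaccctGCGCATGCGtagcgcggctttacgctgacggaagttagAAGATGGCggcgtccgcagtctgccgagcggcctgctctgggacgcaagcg

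The mitochondrial share of the reads separated the experiments. The 13 mitochondrial genes took 6.12, 7.17, 7.70 and 6.65% of reads on genes in the 4 Saline-Saline libraries and 6.95, 7.00, 7.47 and 7.73% in the LPS-Saline libraries. They took 7.05, 6.85, 7.34 and 7.75% in the Saline-Heroin libraries and 8.14, 7.23, 7.46 and 7.08% in the LPS-Heroin libraries. They took 9.67, 9.86, 14.01 and 12.7% in the Saline-SA libraries and 9.78, 9.46, 10.53 and 8.92% in the Heroin-SA libraries. Every self-administration library thus lay above every injection library, and replicates 3 and 4 of Saline-SA were the 2 highest. The mitochondrial ribosomal RNAs, which are not members, ranged from 0.695 to 1.07% of reads in Saline-Saline and from 1.05 to 1.86% in Saline-SA, with the highest value in Saline-SA replicate 3 as well.

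The nuclear members did not follow this split. Their share of reads was 1.18 ± 0.0489% (SD, n = 4) in Saline-Saline, 1.16 ± 0.0714% with LPS alone, 1.13 ± 0.0436% with heroin alone and 1.16 ± 0.0580% with both. It was 1.15 ± 0.0847% in Saline-SA and 1.17 ± 0.0842% in Heroin-SA. The ranges of all 6 groups overlapped. The ratio of mitochondrial to nuclear reads was 5.87 ± 0.466 in Saline-Saline, 10.2 ± 2.40 in Saline-SA and 8.26 ± 0.204 in Heroin-SA.

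**Figure D2:**
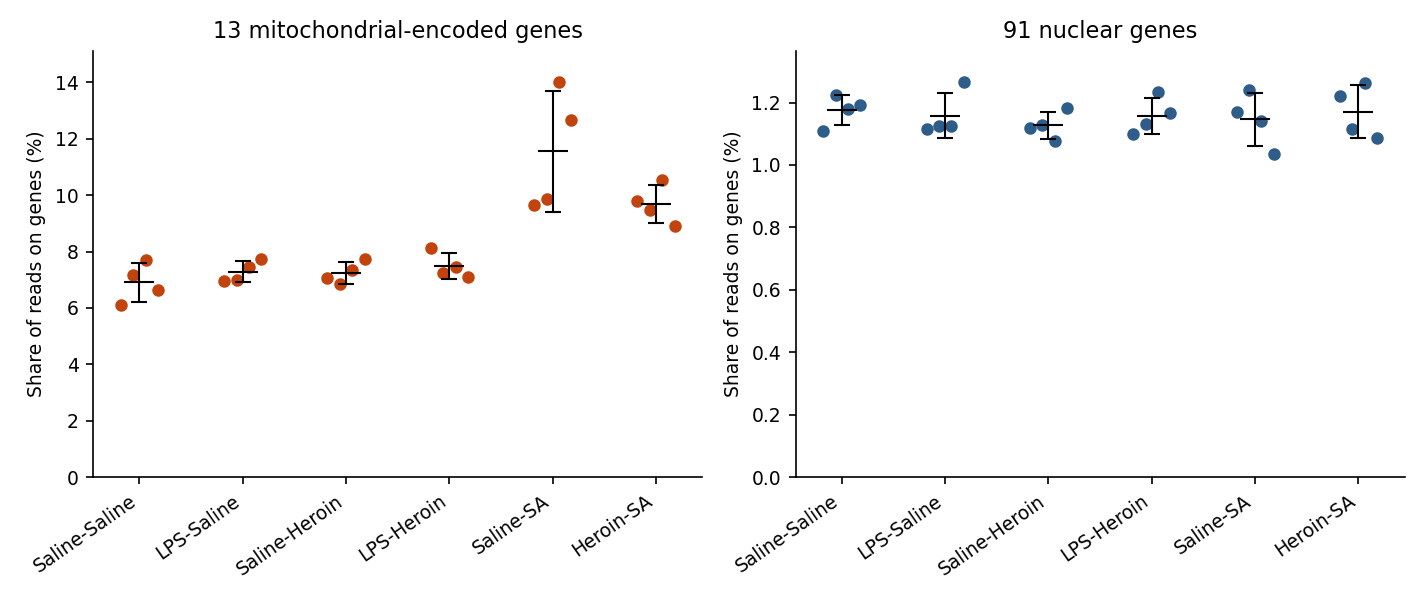
Share of reads on genes (%) taken by the 13 mitochondrial-encoded members (left) and the 91 nuclear members (right) in each library; points are libraries, and black bars the mean ± SD of 4. The Saline-SA and Heroin-SA libraries lie between 8.92% and 14.01% on the left, above the injection libraries (6.12% to 8.14%), whereas the nuclear shares of all groups overlap.

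Saline-SA against Saline-Saline compares the control groups of the 2 experiments. Each gene was tested with limma on log2(FPKM + 0.1) over all genes with a mean of at least 0.5 FPKM in the 8 libraries, and a log2 difference is the first group minus the second on that scale. Of the 15150 genes tested, 23.7% passed an adjusted p of 0.05 (Benjamini-Hochberg), 9.8% higher and 13.9% lower in Saline-SA. Of the 13 mitochondrial members 9 rose and none fell, with a median log2 difference of 0.74 over the 13 (under quantile normalization Mt-co1, Mt-cytb and Mt-nd4l turned below 0, the median was 0.057 and 2 of the 13 passed). Of the 86 nuclear members tested 3 rose and 3 fell, with a median of 0.094. The median over all genes tested was 0.00826. At an unadjusted p of at most 0.05, which 17% of all genes reached upward and 19.9% downward, 10 mitochondrial members were higher and none lower, and 12 nuclear members were higher and 4 lower. Leaving out 1 library at a time gave between 5 and 17 called members in place of 15, with 5 without Saline-Saline replicate 1 and 5 without Saline-Saline replicate 4.

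Mt-atp6, the proton-channel subunit of ATP synthase, had the largest mitochondrial difference. It read 10493, 13125, 14566 and 12156 FPKM in the Saline-Saline libraries and 20116, 20874, 34089 and 27083 FPKM in the Saline-SA libraries, with no overlap, and rose by 1.00 (SE 0.25, adjusted p = 0.0222). The Heroin-SA libraries read 20398, 18986, 22659 and 18471 FPKM, also above every injection library. Mt-nd1, a membrane subunit of complex I, read 4680.1, 6167, 6337 and 5332 FPKM in Saline-Saline and 8829, 8969, 13710.0 and 12064 FPKM in Saline-SA, and rose by 0.94 (SE 0.21, adjusted p = 0.0126). The calls of Mt-nd1 and Mt-nd6 held whichever of the 8 libraries was left out, while those of the other mitochondrial genes held in 2 to 5 of the 8 fits. For Mt-nd6, however, Saline-Saline was the lowest group. Every other injection group stood above it too, by 0.43 to 0.54 without passing, against 0.70 for Saline-SA. Of the reads on the 13 mitochondrial genes, Mt-nd6 took 0.083% ± 0.020 (SD, n = 4) in Saline-SA and 0.086% ± 0.0075 in Saline-Saline. Mt-co2, the copper-binding subunit of complex IV, read 8873, 10299.6, 11562 and 9710.2 FPKM in Saline-Saline and 15473, 16271, 25906 and 21365 FPKM in Saline-SA, and rose by 0.94 (SE 0.23, adjusted p = 0.0205).

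The other mitochondrial rises were of a like size. Mt-nd3 rose by 0.91 (SE 0.25, adjusted p = 0.0287), Mt-nd2 by 0.88 (SE 0.23, adjusted p = 0.0251), Mt-cox3 by 0.85 (SE 0.23, adjusted p = 0.0297), Mt-nd6 by 0.70 (SE 0.15, adjusted p = 0.0117) and Mt-atp8 by 0.65 (SE 0.17, adjusted p = 0.0270). Mt-cytb rose by 0.74 (SE 0.19, adjusted p = 0.0246), and Mt-co1, which missed the threshold, differed by 0.67 (SE 0.22, adjusted p = 0.0538), but under quantile normalization these 2 genes changed sign, to -0.11 and -0.17 in that order. That scaling gives each rank the same value in every library, and 7 of the mitochondrial genes hold ranks 1 to 7. The 2 genes it left past the threshold were Mt-nd6 at 0.67 and Mt-atp8 at 0.54, while 12 nuclear members passed under it. Saline-SA replicates 3 and 4 were the 2 highest of all 24 libraries for 10 of the 13 genes. Without these 2 libraries, a choice made after seeing the data, the mitochondrial median was 0.55 and Mt-nd6, Ndufs1 and Ndufaf3 were the 3 members that stayed past the threshold, of 15.

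The complex I genes Mt-nd4l, Mt-nd4 and Mt-nd5, neighbours on the mitochondrial chromosome, did not pass. Mt-nd5 read 1513, 1747, 1997 and 1649 FPKM in Saline-Saline and 1739.6, 1793, 2361 and 2229.5 FPKM in Saline-SA, which overlap, and differed by 0.23 (SE 0.14, adjusted p = 0.273). Mt-nd4l differed by 0.19 (SE 0.18, adjusted p = 0.464), or by -0.15 under quantile normalization and -0.051 without Saline-SA replicates 3 and 4, and Mt-nd4 by 0.25 (SE 0.26, adjusted p = 0.526). The makeup of the mitochondrial reads differed too, as a description with no test. Mt-nd5 took 4.70% ± 0.13 (SD, n = 4) of the reads on the 13 genes in Saline-Saline, 3.18% ± 0.20 in Saline-SA and 3.30% ± 0.39 in Heroin-SA, and between 4.12% and 5.31% in the libraries of the other 3 groups. Mt-nd4l took 1.38% ± 0.03, 0.91% ± 0.01 and 1.06% ± 0.16 in the same 3 groups, and the libraries of Saline-SA (0.91% to 0.92%) lay below all of Saline-Saline (1.35% to 1.43%). Mt-atp6 went the other way, from 12.73% ± 0.37 to 14.67% ± 0.61 in Saline-SA. These shares depend on neither library size nor the nuclear genes.

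Nuclear members moved in both directions. Ndufs1, the largest iron-sulphur subunit of complex I, read 72.7, 68.0, 74.9 and 74.3 FPKM in Saline-Saline, 53.4, 53.7, 48.0 and 43.0 FPKM in Saline-SA and 52.4, 49.95, 52.8 and 50.3 FPKM in Heroin-SA. It fell by 0.55 (SE 0.081, adjusted p = 0.00229) on the log2 scale in Saline-SA, the smallest p of all members, and neither self-administration group overlapped Saline-Saline. Atp5a1, the alpha subunit of ATP synthase, read 358, 396, 400.2 and 398 FPKM in Saline-Saline and 317, 324, 255 and 257 FPKM in Saline-SA, and fell by 0.44 (SE 0.10, adjusted p = 0.0139). Ndufaf3, an assembly factor of complex I, read 22.7, 22.8, 21.0 and 21.2 FPKM and 28.5, 28.1, 29.7 and 27.8 FPKM in the same groups and rose by 0.38 (SE 0.059, adjusted p = 0.00294). These 3 calls held whichever of the 8 libraries was left out.

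In complex II, 1 of the 4 genes rose and 1 fell, where 9.8% of all genes rose and 13.9% fell. All 4 genes of complex II had an unadjusted p of at most 0.05, which 17% of all genes reached upward and 19.9% downward. Its flavoprotein Sdha read 137, 129, 130.5 and 136 FPKM in Saline-Saline and 113, 115, 121 and 116 FPKM in Saline-SA, and fell by 0.20 (SE 0.053, adjusted p = 0.0285). The membrane anchor Sdhd read 78.7, 98.7, 94.0 and 93.3 FPKM and 114, 111, 126 and 102 FPKM, and rose by 0.32 (SE 0.091, adjusted p = 0.0346). The iron-sulphur subunit Sdhb differed by 0.22 (SE 0.084, adjusted p = 0.0864) and the other anchor Sdhc by 0.17 (SE 0.059, adjusted p = 0.0618), neither of which passed. The supercomplex factor Cox7a2l rose by 0.29 (SE 0.078, adjusted p = 0.0269). Without Saline-SA replicates 3 and 4 the adjusted p was 0.0503 for Sdha, 0.08 for Sdhd, 0.123 for Cox7a2l and 0.056 for Atp5a1.

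The remaining nuclear members stayed short of the threshold. The median log2 difference was 0.078 over 7 members of complex III, 0.16 over 15 of complex IV, 0.076 over 16 of complex V, 0.044 over 33 of complex I and 0.14 over the 11 assembly and associated genes. Uqcrc1, a core protein of complex III, differed by -0.20 (SE 0.075, adjusted p = 0.0881), Cox7a2 by 0.24 (SE 0.084, adjusted p = 0.0665) and Cox4i2 by 0.51 (SE 0.18, adjusted p = 0.0753). In complex I, Ndufa11 differed by 0.24 (SE 0.079, adjusted p = 0.0553) and Ndufb10 by 0.23 (SE 0.076, adjusted p = 0.0610). Every mitochondrial median by complex, 0.70 in I, 0.74 in III, 0.85 in IV and 0.83 in V, lay above the nuclear median of the same complex. With reads on mitochondrial genes left out of the implied library size, the median over all genes tested became 0.098, that of the nuclear members 0.19 and that of the mitochondrial members 0.83. This setting scales all genes of a library by the same factor, so a near-equal shift of all genes follows from it and says nothing about the members in particular. Under it 12 nuclear members passed in place of 6, and 3897 of all genes in place of 3584.

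**Figure D3:**
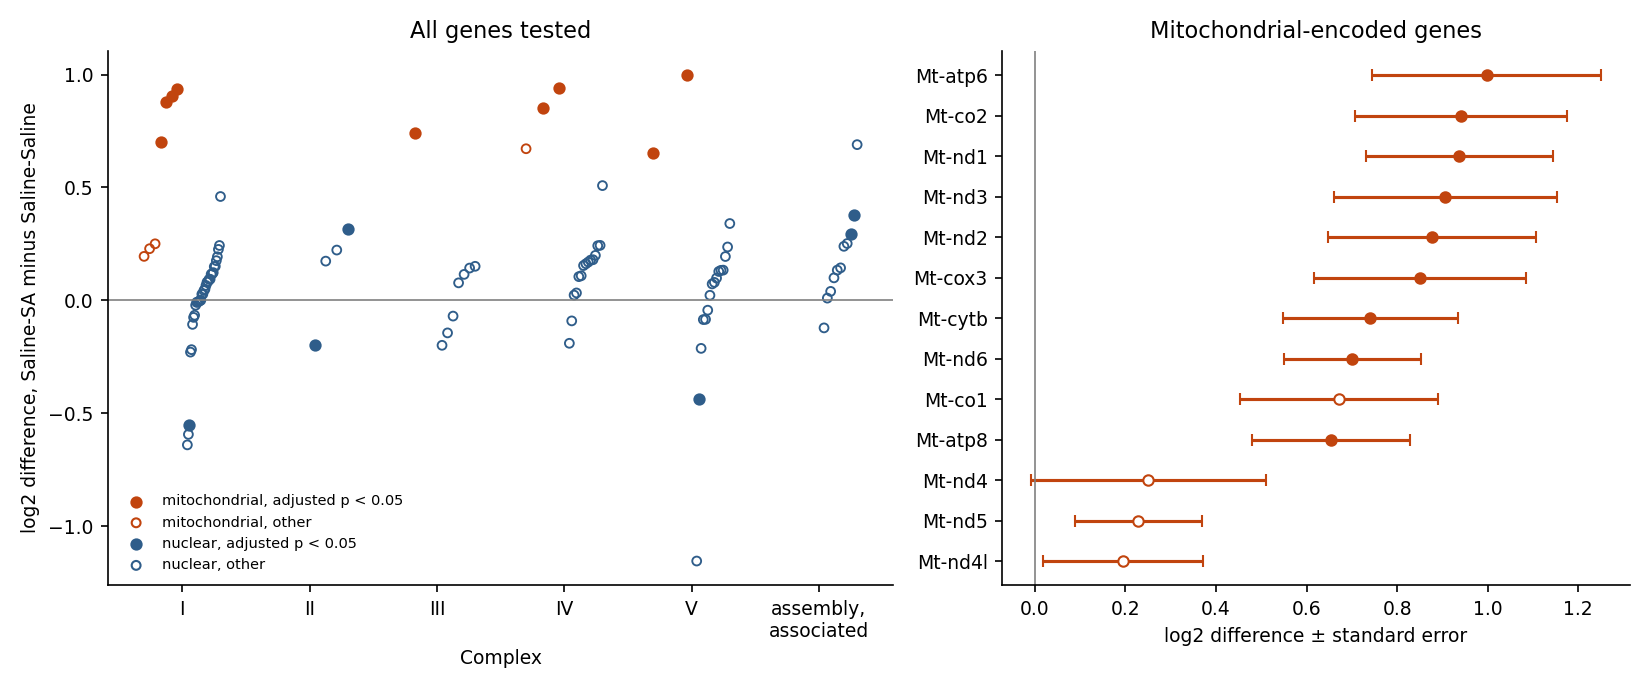
log2 difference of Saline-SA minus Saline-Saline for the 99 members tested, by complex (left), and for the 13 mitochondrial members with the standard error (right); filled points passed an adjusted p of 0.05 in limma. The 13 mitochondrial genes lie between 0.19 and 1.00, and the nuclear genes lie on both sides of 0; under quantile normalization Mt-co1, Mt-cytb and Mt-nd4l were below 0.

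Gene length and cell-type markers were also set beside this comparison. The 20 nuclear members of at least 1500 bases, a boundary chosen after seeing the values, had a median log2 difference of -0.08 and the 66 shorter ones 0.12, against -0.006 and 0.049 for all genes above and below that length. Most markers of each cell type did not pass, and their counts stand beside 9.8% of all genes higher and 13.9% lower. Of the medium spiny neuron markers 3 of 10 rose (Drd2, Rgs9 and Adora2a), with summed levels of 1228 to 2498 FPKM in Saline-Saline and 1914 to 3266 FPKM in Saline-SA. Of the oligodendrocyte markers 2 of 8 fell (4686 to 7291 and 4488 to 5097 FPKM summed), of the astrocyte markers 2 of 7 (1244 to 1465 and 1207 to 1615 FPKM) and of the microglia markers 3 of 7 (114 to 150.2 and 92.9 to 122 FPKM). Of the endothelial markers 2 of 5 rose (71.5 to 80.2 and 84.9 to 106 FPKM). The summed ranges of the groups overlapped for all of these lists but the endothelial one, and sums are led by the genes with the highest levels. Averaged over markers on the log2 scale, astrocyte values were 6.401 to 6.788 in Saline-Saline and 6.085 to 6.366 in Saline-SA, without overlap. Every self-administration library lay below every injection library for this average. The microglia average reached at most 3.408 in Saline-SA, below every Saline-Saline library. The endothelial averages did not overlap either, while those of medium spiny neurons and oligodendrocytes did. No pan-neuronal, choroid plexus, ependymal or red blood cell marker passed, although the summed red cell markers reached 4635 FPKM in 1 Saline-SA library against 406 to 596 FPKM in Saline-Saline. Summed choroid plexus markers ran from 0.769 to 332 FPKM in the Saline-Saline libraries and from 1.69 to 3.31 FPKM in Saline-SA. Summed ependymal markers ran from 1.82 to 25.55 FPKM and from 3.66 to 10.8 FPKM in the same groups. No marker tested here was at 0 in all libraries of either group, and the part of these values in the result was not tested.

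Heroin-SA against Saline-SA asks what 10 sessions of heroin intake changed beside saline intake. No member passed an adjusted p of 0.05 in limma (0% of 15024 genes did), and none did with limma-voom on the reads. At an unadjusted p of at most 0.05 none of the 99 members was higher (6.16% of all genes) and 2 were lower (5.32%). The median log2 difference was -0.21 over the mitochondrial members, 12 of which had the lower mean in Heroin-SA (6 under quantile normalization), and 0.044 over 86 nuclear members, beside 0.00888 over all genes. The mitochondrial median was 0.017 without Saline-SA replicates 3 and 4, and 0 under quantile normalization.

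The 2 members under an unadjusted p of 0.05 were both nuclear. Ndufaf3 read 28.5, 28.1, 29.7 and 27.8 FPKM in Saline-SA and 25.2, 23.7, 26.1 and 23.9 FPKM in Heroin-SA, with no overlap and a difference of -0.21 (SE 0.062, adjusted p = 0.344). Sdhb read 114, 125, 145 and 139 FPKM and 115, 92.8, 126 and 101 FPKM, which overlap, and differed by -0.27 (SE 0.11, adjusted p = 0.412). The mitochondrial gene with the smallest p was Mt-nd5, at -0.20 (SE 0.13, adjusted p = 0.545). The next nuclear genes by p were Ndufc1 at 0.28 (SE 0.13, adjusted p = 0.463), Uqcr10 at 0.50 (SE 0.25, adjusted p = 0.477) and Ndufa11 at -0.21 (SE 0.11, adjusted p = 0.496). The Heroin-SA libraries varied less in mitochondrial share (SD 0.674 percentage points) than the Saline-SA libraries (SD 2.14).

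In the injection experiment LPS-Saline, Saline-Heroin and LPS-Heroin had 1 and the same control group, the 4 Saline-Saline libraries, so the 3 comparisons are not independent. No member passed an adjusted p of 0.05 in limma, where 0% of the genes tested did so in each, and none did with limma-voom. The mitochondrial medians were 0.12 with LPS alone, 0.12 with heroin alone and 0.17 with LPS then heroin, and all 13 mitochondrial genes had the higher mean in each, against 8, 7 and 7 under quantile normalization. These genes are cut from long shared transcripts, so their common direction is not 13 independent observations. The nuclear medians over 87 genes were -0.012, -0.057 and -0.000218, and the medians over all genes 0.00678, 0.00193 and 0.000590. Saline-Saline replicate 1 had the lowest mitochondrial share of all 24 libraries, and over the fits that left out 1 library the mitochondrial median ran from 0.048 to 0.19, from 0.041 to 0.18 and from 0.10 to 0.22.

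Mt-nd6, the complex I subunit on the minus strand, was the member with the largest mitochondrial difference in each. It read 92.6, 106, 138 and 112 FPKM in the Saline-Saline libraries and 170.1, 166, 175 and 136 FPKM in the LPS-Saline libraries. The Saline-Heroin libraries read 149, 132, 164 and 156 FPKM and the LPS-Heroin libraries 178, 151, 181 and 129.6 FPKM. Of the 4 Saline-Saline libraries, 3 lay below every library of the other 5 groups. The log2 differences were 0.54 (SE 0.13, unadjusted p = 0.00210, adjusted p = 0.659) with LPS, 0.43 (SE 0.12, unadjusted p = 0.00549, adjusted p = 0.7496) with heroin and 0.52 (SE 0.14, unadjusted p = 0.00499, adjusted p = 0.231) with LPS then heroin, none past the adjusted threshold.

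In LPS-Saline, 2 of the 100 members tested were higher and 2 lower at an unadjusted p of at most 0.05, where 3.65% of all genes were higher and 2.98% lower. The higher ones were Mt-nd6 and Mt-nd4, which differed by 0.32 (SE 0.14, adjusted p = 0.736). The lower ones were the complex I subunit Ndufb10, which read 139, 164, 162 and 149.7 FPKM in Saline-Saline and 118, 130.3, 121 and 143 FPKM in LPS-Saline and differed by -0.26 (SE 0.081, adjusted p = 0.679), and the complex IV subunit Cox5b, at -0.41 (SE 0.13, adjusted p = 0.679). Cox5b read 367, 376, 413 and 423 FPKM in Saline-Saline and 267, 390.4, 263 and 281 FPKM in LPS-Saline, where replicate 2 stood apart from the other 3. The next nuclear genes by p, Atp5g2, Cox6b2 and Ndufb6, differed by -0.12, -0.23 and -0.16.

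In Saline-Heroin, 1 member was higher (3.56% of all genes) and 2 lower (3.01%) at that level. Cox5b read 337, 247, 301 and 279 FPKM, all below Saline-Saline, and differed by -0.45 (SE 0.10, adjusted p = 0.7496). Ndufv3, a small complex I subunit, read 39.1, 38.2, 37.1 and 37.9 FPKM against 41.9, 42.8, 39.4 and 41.9 FPKM in Saline-Saline, also without overlap, and differed by -0.12 (SE 0.049, adjusted p = 0.7496). Ndufaf2, Ndufb11 and Sdhb followed by p, at -0.23, -0.16 and -0.12. The nuclear members had the lower mean in 64 of 87 genes, 27 of 33 in complex I and 12 of 16 in complex V, while 7483 of 15143 genes overall did so. By length, the median was -0.072 over the 67 nuclear members under 1500 bases and -0.0056 over the 20 longer ones, against -0.019 and 0.0091 for all genes. In LPS-Saline the same medians were -0.033 and 0.043 for nuclear members, against -0.031 and 0.018 for all genes, and the part of length in these values was not tested.

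In LPS-Heroin, 1 member was higher (6.45% of all genes) and 2 lower (4.81%) at that level. Ndufb10 read 123, 139, 144 and 132 FPKM and differed by -0.19 (SE 0.073, adjusted p = 0.369). The other was the Atp5f1 entry with the higher level, a subunit of the ATP synthase stalk, at -2.38 (SE 0.70, adjusted p = 0.260), whose libraries are described with the variable genes. Cox5a, the main Ndufa13 entry and Ndufaf5 followed by p, at -0.23, -0.11 and 0.14.

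LPS-Heroin was also compared with each of its single treatments. Against LPS-Saline no member passed at either level in limma, nor the adjusted level in limma-voom (0% of all genes at the adjusted level, 2.41% higher and 2.19% lower at the unadjusted level), and the medians were 0.013 for mitochondrial and 0.00718 for nuclear members. Against Saline-Heroin no member passed the adjusted level in limma (0% of all genes) or in limma-voom, and 1 was higher and none lower at the unadjusted level (2.33% and 1.88%). It was the Ndufa13 entry on chromosome 7 (chr7:36826360-36826788), which was under 2 FPKM in every library. The medians there were 0.056 and 0.047. After the first Atp5f1 entry, the smallest p among nuclear members against LPS-Saline belonged to Ndufaf5, Atp5s and Uqcrq, at 0.18, 0.17 and 0.12. Against Saline-Heroin, Ndufc1, Cox8a and Ndufaf5 came after Ndufa13, at -0.16, 0.12 and 0.16.

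The interaction term asks whether the difference with heroin depended on the LPS history. No member passed the adjusted level in limma (0% of 15113 genes) or in limma-voom. At the unadjusted level 1 member was positive and 1 negative, where 2.14% and 1.87% of all genes were. Cox5b had a term of 0.70 (SE 0.23, unadjusted p = 0.00874, adjusted p = 0.992): its LPS-Heroin libraries read 239.6, 400.3, 412 and 393 FPKM, of which replicate 1 stood below the rest. Mt-nd6 had a term of -0.46 (SE 0.18, unadjusted p = 0.0236, adjusted p = 0.992). The medians were -0.083 over mitochondrial and 0.058 over nuclear members, the first running from -0.14 to 0.0065 when 1 library was left out (0.0065 without Saline-Saline replicate 1), and Cox8a and Ndufb10, the next nuclear genes by p, had terms of 0.24 and 0.20.

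**Figure D4:**
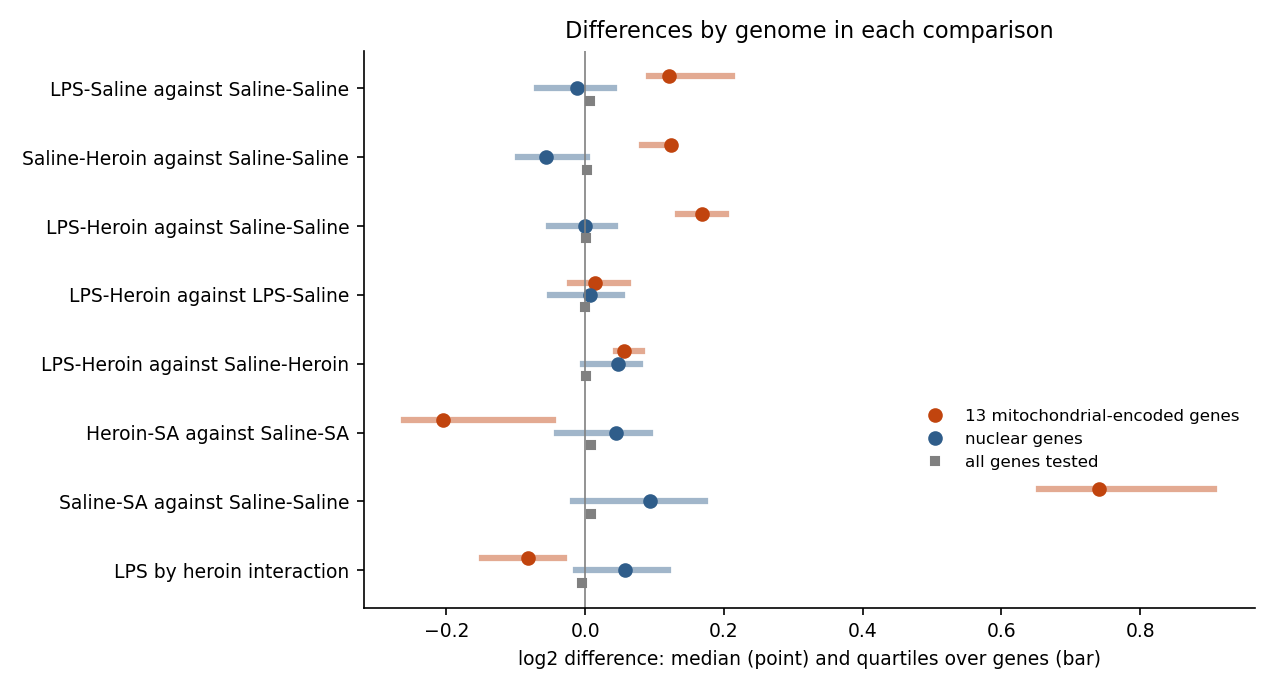
Median log2 difference over the 13 mitochondrial members (orange) and the nuclear members (blue), with bars from the lower to the upper quartile over genes, and the median over all genes tested (grey squares), in the 7 comparisons and for the interaction term. The mitochondrial median is 0.74 for Saline-SA against Saline-Saline (0.057 under quantile normalization), between -0.21 and 0.17 elsewhere, and the nuclear medians lie between -0.057 and 0.094. Under quantile normalization the mitochondrial medians of the other comparisons and the interaction lay between -0.048 and 0.047.

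Most members varied little between replicates, and a few nuclear ones varied a great deal. The SD of log2(FPKM + 0.1) within groups had a median of 0.14 over the 87 nuclear members and 0.19 over the mitochondrial ones. Ndufa1, a complex I subunit on the X chromosome (chrX:124513269-124516705), had the largest, 3.88. It read 10.8, 49.9, 1.30 and 2.24 FPKM in the Saline-Saline libraries and 1.27, 0.973, 1.45 and 214 FPKM in the LPS-Saline libraries. The Saline-Heroin libraries read 0.294, 1.76, 120.4 and 0.383 FPKM and the LPS-Heroin libraries 164, 213, 0 and 208 FPKM. It read 0.814, 2.31, 216 and 0.624 FPKM in Saline-SA and 1.70, 69.4, 75.5 and 0.625 FPKM in Heroin-SA. It was thus under 3 FPKM in 14 libraries and over 49 FPKM in 9, with high and low libraries in every group. The cause of this spread was not tested, and the Ndufa1 values are uncertain.

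The 2 Atp5f1 entries, neighbours on chromosome 2 (chr2:208408890-208420163 and chr2:208566385-208577146) of the same listed length, 2063 bases, were low for a subunit of ATP synthase. The first averaged 6.40 FPKM and ranged from 0.567 to 34.5 FPKM, and the second averaged 1.10 FPKM. The first read 4.43, 2.61, 34.5 and 13.8 FPKM in Heroin-SA and 1.27, 0.567, 1.14 and 0.862 FPKM in LPS-Heroin, and the other groups held both high and low libraries. Cox5b read 294, 491, 480.4 and 271 FPKM in Saline-SA, again with 2 high and 2 low libraries, and 362, 346, 333 and 416 FPKM in Heroin-SA. Uqcr10, a small complex III subunit, read 58.0, 52.3, 25.2 and 31.6 FPKM in Saline-SA, where replicates 3 and 4, the ones with the highest mitochondrial share, were lowest. It read 55.4, 51.9, 64.1 and 52.4 FPKM in Heroin-SA. How reads that match more than 1 gene entry were counted is not given in the sources used here. The sequences of the 2 Atp5f1 entries were not compared, and their values are uncertain.

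**Figure D5:**
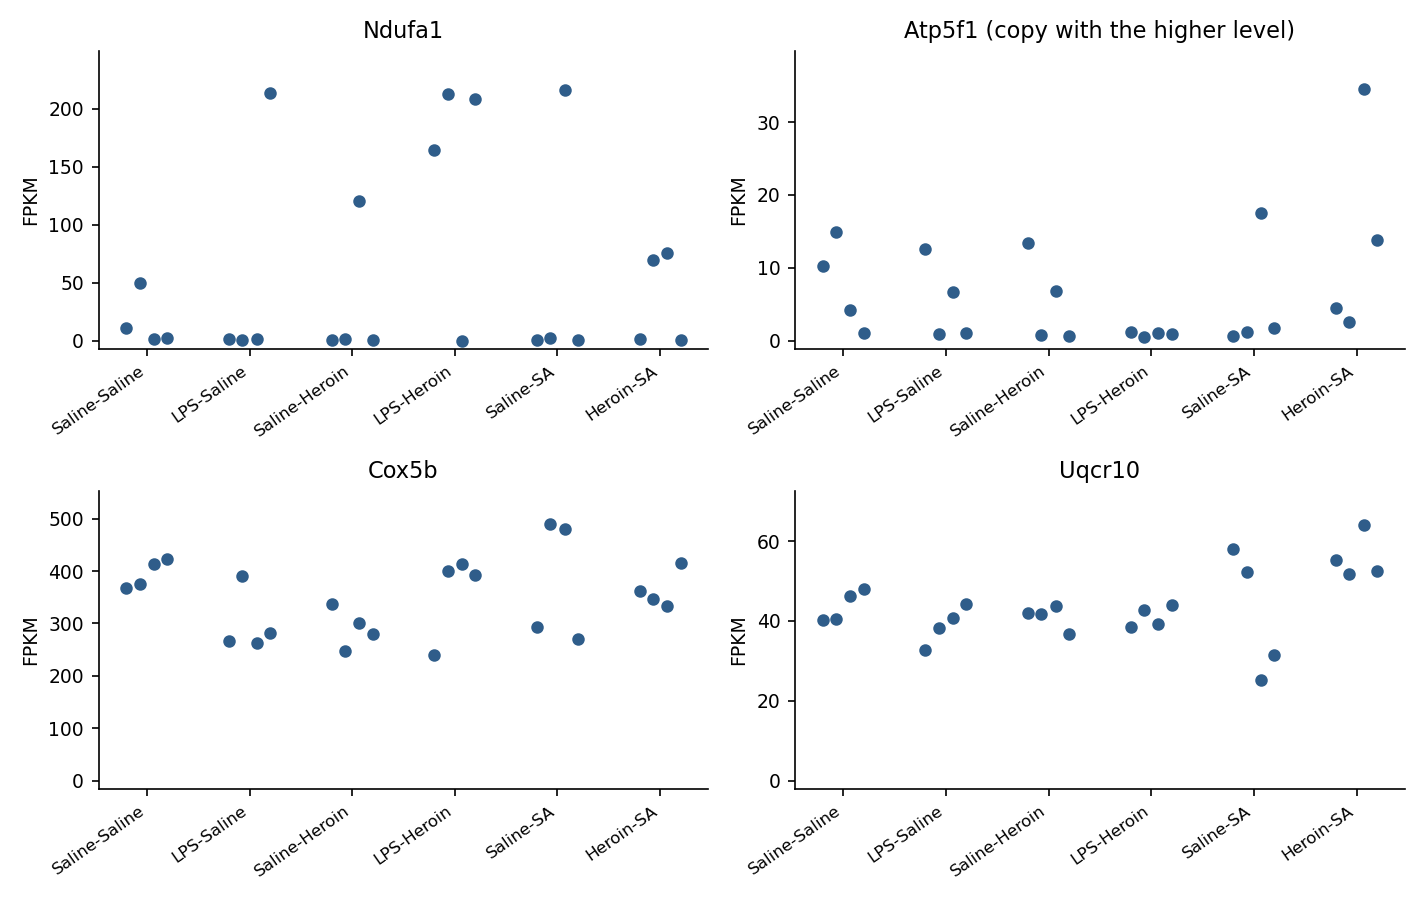
FPKM of Ndufa1, the Atp5f1 entry with the higher level, Cox5b and Uqcr10 in each library, by group; each point is a library. Ndufa1 and Atp5f1 take high and low values within most groups, Cox5b ranges from 240 to 491 FPKM, and Uqcr10 is lowest in 2 Saline-SA libraries.

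Other genes of mitochondrial metabolism, from lists chosen with earlier results of these data known, had calls only in Saline-SA against Saline-Saline, to be read against 9.8% of all genes higher and 13.9% lower. Of 14 regulators of mitochondrial biogenesis 1 rose and 3 fell, with a median log2 difference of -0.17. Tfb2m, a mitochondrial transcription factor, rose by 0.51 (SE 0.090, adjusted p = 0.00482). The mitochondrial RNA polymerase Polrmt fell, at -0.37 (SE 0.087, adjusted p = 0.0164), as did the coactivator Ppargc1a, at -0.74 (SE 0.17, adjusted p = 0.0145), and the factor Yy1, at -0.41 (SE 0.069, adjusted p = 0.00397). Of 15 genes of mitochondrial RNA processing, stability and DNA replication only Lrpprc, which stabilises mitochondrial messengers, passed, and it fell, at -0.40 (SE 0.076, adjusted p = 0.00715).

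Of 14 citric acid cycle genes none rose and 4 fell. The entry enzyme of the oxoglutarate step, Ogdh, fell most, from 18.8 ± 0.717 to 7.87 ± 0.287 FPKM (SD, n = 4), a log2 difference of -1.24 (SE 0.068, adjusted p = 3.75e-05). Citrate synthase, Cs, was at -0.42 (SE 0.067, adjusted p = 0.00340), the pyruvate dehydrogenase subunit Dlat at -0.51 (SE 0.076, adjusted p = 0.00238) and fumarase, Fh, at -0.41 (SE 0.063, adjusted p = 0.00275). Of 17 glycolysis genes none rose and 4 fell, among them Hk1 (-0.27, SE 0.061, adjusted p = 0.0144) and Pfkm (-0.30, SE 0.074, adjusted p = 0.0205). Of 24 assembly factors, from a list for complexes III to V that also named Sdhaf1 to Sdhaf4 of complex II, 3 rose, namely Cox10, Uqcc3 and Cox20, and none fell. Of 14 genes from a list of electron carriers, ADP/ATP or uncoupling carriers and related genes, Ucp2, Slc25a27 and Coq9 rose and Etfdh fell.

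Ribosomal protein genes, another large set of nuclear genes, had calls in the upward direction. Of 73 mitochondrial ribosomal protein genes 18 rose and none fell, with a median of 0.18, Mrpl18 having the smallest p. Of 102 cytosolic ribosomal protein genes, a list drawn by symbol that also holds S6 kinases such as Rps6kc1, 36 rose and none fell, with a median of 0.27. For Heroin-SA minus Saline-SA the medians of these 2 lists were -0.028 and -0.10, with no gene past the adjusted threshold. The medians of the nuclear oxidative phosphorylation genes, 0.094 and 0.044, were smaller in size in the first comparison and of the other sign in the second.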

How the data were processed

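NAc RNA was sequenced in 24 poly-A selected, directional libraries (6 groups of 4). The authors trimmed reads with fastp, aligned them with HISAT2 to rn6 and counted genes with featureCounts. They deposited FPKM values per gene and library (versions and the strand setting are not given in the sources used here). Dividing by the value of 1 read gave whole reads for 100% of values (tolerance 0.001), from which read shares and Wilson 95% intervals were computed. Groups came from the labels. Genes with a mean of at least 0.5 FPKM in the libraries of a comparison were tested with limma 3.58.1 (trend, R 4.3.3) on log2(FPKM + 0.1), 2-sided, with Benjamini-Hochberg adjustment over all genes tested and calls at an adjusted p under 0.05. The pseudocount understates changes of low genes. Limma-voom on the recovered reads was an alternative. The method was run on simulated reads with the same spread setting for every gene, which the real genes do not share, so that run does not give its error rates here. Members and gene lists were chosen with earlier results of these data known.

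The text names the mitochondrial members, the highest and lowest nuclear member of each complex, complex II, tissue isoforms, called members (at most 10 by p in a comparison) and the 5 nuclear members with the smallest p. Other members past the threshold, and the variable genes, were named after their values were seen. Alternatives were a pseudocount of 1, no FPKM filter, quantile normalization, mitochondrial reads left out of the library size, limma-voom, a replicate block, all 6 groups in 1 fit, leaving out each library, and, chosen after seeing the data, leaving out Saline-SA replicates 3 and 4. The labels call the samples biological replicates, and p-values measure the spread between them. Promoters came from RefSeq on GRCr8. Protein sequences were not used here.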

Additional observations from a re-analysis of the deposited data

Results flagged for a closer look

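Among 132 groups of 4 libraries examined for a value far from the other 3, 4 were noted, and chance alone would note about 1 in 20, or 6.6. The nuclear members' share of reads was 1.265% in LPS-Saline replicate 4, with the nearest other library at 1.126%. Cox5b read 390.4 FPKM in LPS-Saline replicate 2, where the nearest other library read 281.3 FPKM, and 239.6 FPKM in LPS-Heroin replicate 1, where the nearest read 393 FPKM. Atp5a1 read 358.2 FPKM in Saline-Saline replicate 1, with the nearest other library at 396.4 FPKM.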

How the results depend on the processing

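In Saline-SA against Saline-Saline, 15 members passed. The count was 7 with no filter on FPKM, 14 under quantile normalization, 16 with limma-voom, 22 with mitochondrial reads left out of the library size and 22 with all 6 groups in 1 fit. It ran from 5 to 17 when 1 library was left out, and was 3 without Saline-SA replicates 3 and 4. The mitochondrial median of 0.74 became 0.057 under quantile normalization, where Mt-co1 stood at -0.17, Mt-cytb at -0.11 and Mt-nd4l at -0.15, and where 2 mitochondrial and 12 nuclear members passed in place of 9 and 6. That scaling sets the values of the top ranks equal in every library. In Heroin-SA against Saline-SA the mitochondrial median of -0.21 became 0.017 without Saline-SA replicates 3 and 4. In the other 5 comparisons and the interaction no member passed under any alternative run. Their mitochondrial medians moved: under quantile normalization 0.12 became 0.047 in LPS-Saline, 0.12 became 0.021 in Saline-Heroin and 0.17 became 0.040 in LPS-Heroin, each against Saline-Saline, and the interaction's -0.083 ran from -0.14 to 0.0065 when 1 library was left out, the sign changing without Saline-Saline replicate 1. For the 13 mitochondrial genes in Saline-SA against Saline-Saline, and elsewhere for named genes with an unadjusted p of at most 0.05, 657 values under an alternative were compared. Of these 559 kept their direction and side of the threshold, 71 lost the call, 23 gained one and 4 changed sign, the fourth being Mt-nd4l at -0.051 without Saline-SA replicates 3 and 4. Of 129 counts at an unadjusted p of at most 0.05, 31 moved by more than 1.5 times. With the replicate number as a replicate block, 16 members passed in Saline-SA against Saline-Saline. Same-numbered libraries deviated together with correlations of -0.150 to 0.154 and in no comparison above 0.1 for all 4 numbers, so the numbers were not taken as pairs. Gene entries that share a symbol, overlapping mitochondrial genes and a strand setting that the sources do not give limit single-gene values. The causes of these shifts were not tested.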
